A study of Mus musculus with 3 samples.

Results

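The regions described here are open chromatin sites that fat cells of 3 mouse depots have in common and that rank higher in epididymal white fat (eWAT) than in either inguinal white fat (iWAT) or brown fat, called BAT. Overlapping or touching DNase I hypersensitive sites of the 3 deposited lists were merged into 99297 regions, of which 24988 hold exactly 1 site from each list. Within these common regions the normalized tag count of each list was turned into a percentile from 0 (lowest) to 1 (highest). A region belongs to the set if its eWAT percentile lies at least 0.2 above both the iWAT and the BAT percentile, which holds for 1780 of the 24988 common regions (7.12%). They are called eWAT-stronger regions below, and the excess of the eWAT percentile over the higher of the other percentiles is called the lead. The members were chosen by the tag counts of all 3 lists, so tag counts and percentiles are given as a description and no test is made on them.

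Each list comes from 1 DNase-seq library of primary fat cells grown from male NMRI mice of 4 to 5 weeks. The stromal-vascular cells of each depot, with BAT pooled from interscapular, cervical and axillary fat, were grown with 10% newborn calf serum, ascorbate, antibiotics, 30 nM insulin and the PPARγ-activating drug rosiglitazone at 1 µM. They were harvested on day 8, and nuclei were cut with 120 U/ml DNase I. All 3 groups thus share strain, sex, age and medium and differ by depot. Cultures were used only if more than 50% of the cells had differentiated, so precursors and other stromal cells may be present in each. In such bulk samples, more cells with an open site and a site that is more open in each cell cannot be told apart. The labels do not say if cultures were pooled for a library. There was 1 library per depot, so differences are between single libraries and no p-value is given.

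DNase I cuts DNA where nucleosomes are displaced, and its hypersensitive sites mark promoters, enhancers and other regulatory elements. In fat cells, PPARγ and C/EBP factors open and hold many such elements, and sites used in every depot can still differ in how strongly they are opened. eWAT is a visceral depot beside the testis, iWAT lies under the skin, and BAT burns fuel to make heat. The lists use the mouse build mm9. A genome sequence or gene annotation of that build was not used here, so regions are named by position, no gene is assigned, no sequence is shown, and the cell type was not checked against marker genes.

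For eWAT, iWAT and BAT in that order, the lists hold 60974, 63214 and 48308 sites, with 1184678, 1118529 and 874180 tags within sites. The median site held 16, 14 and 14 tags, and the lowest fold over the surroundings was 4 in each list. Tags were recovered from the normalized tag counts, which are whole multiples of 0.595, 0.985 and 0.857 in the same order.

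The eWAT-stronger regions were sites of middle strength in eWAT and weak sites in the other depots. In eWAT they held 16 to 63 tags, with a median of 25 and quartiles of 22 and 30. In iWAT they held 6 to 30 tags, with a median of 14, and in BAT 8 to 26 tags, with a median of 12. The other 23208 common regions had medians of 21, 20 and 18 tags. The set therefore differed from the rest mainly by low counts in iWAT and BAT and less by a high count in eWAT. In percentiles, the eWAT median was 0.629, against 0.249 for iWAT and 0.197 for BAT. The rule favours such a pattern, and it is not particular to eWAT. Regions chosen in the same way for iWAT had medians of 16, 24 and 13 tags in eWAT, iWAT and BAT. Those chosen for BAT had medians of 15, 14 and 21 tags.

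**Figure D1:**
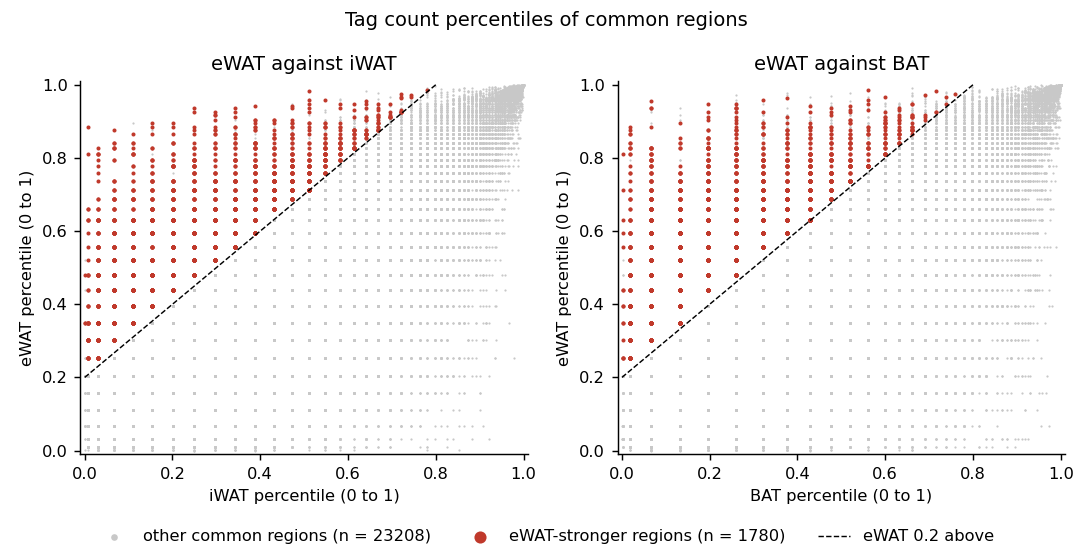
Tag count percentile (0 to 1) in eWAT against that in iWAT (left) and BAT (right) for the 24988 common regions, 1 point per region. The 1780 eWAT-stronger regions (red) lie above the dashed line in both panels by the rule, while grey points above it in 1 panel miss the limit in the other.

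**Figure D2:**
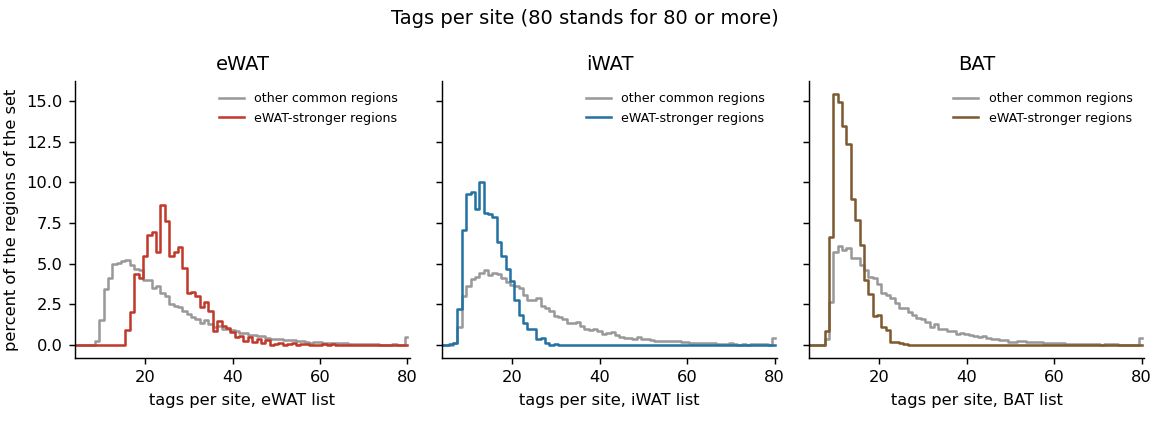
Percent of regions by tags per site in each list, for the 1780 eWAT-stronger regions (coloured) and the 23208 other common regions (grey). The eWAT-stronger regions have medians of 25 eWAT tags, 14 iWAT tags and 12 BAT tags, without the long right tail of the other regions.

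Few of these regions were among the strongest of eWAT. Only 61 (3.43%, 95% interval 2.63 to 4.38) lay in the top 10% of common regions by eWAT tag count. The top 25% held 452 (25.4%, 23.4 to 27.5), which is close to the share of all common regions there by definition. By contrast 1472 (82.7%, 80.9 to 84.4) lay below the 0.5 percentile in both iWAT and BAT. The full contrast, with an eWAT percentile of at least 0.75 and both others below 0.25, was held by 26 regions (1.46%). Every common region with this contrast belongs to the set by the rule. Low iWAT and BAT ranks are favoured by the rule as well, and the share of all common regions below 0.5 in both was not computed. Across eWAT strength, the share of common regions that were eWAT-stronger was highest, at 15.4%, between the eWAT percentiles 0.6 and 0.7, which span 25 to 27 tags. It was 0.698% between 0.2 and 0.3 and 2.42% above 0.9. The rule itself shapes this curve, since no region below 0.2 can qualify and the highest ranks leave room only where the other depots fall well short.

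Leads were mostly small. The median was 0.283, with quartiles of 0.238 and 0.348; 1050 regions had a lead below 0.3, 463 one from 0.3 to 0.4, 181 one from 0.4 to 0.5, 62 one from 0.5 to 0.6, and 24 one of 0.6 or more. The depot that came closest to eWAT varied. The iWAT percentile exceeded the BAT percentile by at least 0.1 in 463 regions (26.01%), the BAT percentile exceeded that of iWAT by as much in 377 (21.2%), and both lay less than 0.1 apart in 940 (52.8%). Both percentiles enter the rule, which holds each at least 0.2 below that of eWAT, so this split is a description. The same shares over all common regions were not computed.

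The scale on which eWAT is called stronger matters for these regions. In normalized tag counts, as the authors deposited them, the eWAT median was 14.9, against 13.8 for iWAT and 10.3 for BAT. The eWAT value exceeded the BAT value in all 1780 regions, with a median ratio of 1.34, but exceeded the iWAT value in 1127 (63.3%), with a median ratio of 1.07. In the other 653 regions iWAT had the same or a higher normalized tag count, although eWAT was ahead in percentile and in tags. Over the other common regions the median ratio was 0.640 for eWAT over iWAT and 0.804 for eWAT over BAT. No source used here gives the total to which each library was normalized, so a statement across lists rests on ranks.

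Counting error limits what can be said of a single region. A count of 25 tags, the eWAT median, has an exact Poisson 95% interval of 16.2 to 36.9, and the medians of 14 tags in iWAT and 12 in BAT have intervals of 7.65 to 23.5 and 6.20 to 21.0. Near these counts 1 tag more raised the percentile by 0.0305 for eWAT, 0.0474 for iWAT and 0.0639 for BAT. With the lower bound of the eWAT tags set against the upper bounds of the others, 31 of the 1780 regions still ranked first in eWAT, and none kept a lead of 0.2. The same rule mirrored gave 1673 regions stronger in iWAT (6.7%) and 2241 stronger in BAT (8.97%). With percentiles taken over each whole list, the sets held 1840 eWAT-stronger, 1669 iWAT-stronger and 999 BAT-stronger regions, so the order of the set sizes depends on the ranking. The statements that follow on neighbours and on groups of regions pool many sites, and their intervals are exact binomial (Clopper-Pearson) intervals that cover counting error only.

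The 20 regions with the largest lead were spread over 15 chromosomes. They held 30 to 46 tags in eWAT, 9 to 15 in iWAT and 9 to 13 in BAT, and the eWAT counts did not overlap the others, which the choice by lead favours. The largest lead, 0.809, lay on chromosome 2 at 61234149 to 61234430, with 38 eWAT tags (95% interval 26.9 to 52.2), 10 iWAT tags (4.80 to 18.4) and 9 BAT tags (4.12 to 17.1). Its eWAT interval lay above both others in tags, but with the tags scaled to normalized counts no region of the set, this one included, had an eWAT interval above both others. Its fold over the surroundings was 12.6 in eWAT against 6.29 and 6.17. The next, on chromosome 11 at 22173577 to 22173865, held 33, 9 and 9 tags in eWAT, iWAT and BAT, and the third, on chromosome 3 at 141316151 to 141316424, held 34, 10 and 10. The fourth, on chromosome X at 163767603 to 163767995, held 35, 11 and 9 tags, and the fifth, on chromosome 14 at 21474123 to 21474382, held 39, 12 and 9. In each of these 5 regions eWAT had over 3 times the tags of either other depot, before any scaling between libraries. In normalized tag counts the excess was smaller, with 19.6 to 23.2 for eWAT, 8.87 to 11.8 for iWAT and 7.71 to 8.57 for BAT.

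**Figure D3:**
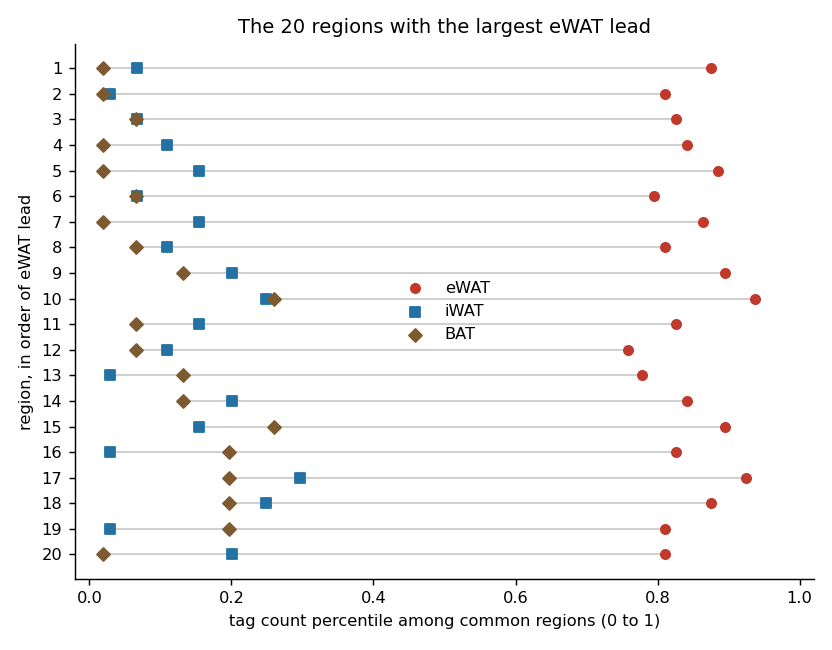
Tag count percentile among common regions (x axis, 0 to 1) in eWAT, iWAT and BAT for the 20 regions with the largest lead, in order of lead from the top. The eWAT points lie between 0.758 and 0.937, the iWAT points between 0.0298 and 0.296 and the BAT points between 0.0190 and 0.261.

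Within these 20 regions the fold over the surroundings, which compares a site with its flanks in the same library, did not always follow the rank. It was highest in eWAT in 17 of the 20, against 48.7% of all 1780 eWAT-stronger regions and 6.03% of the other common regions. The 20 were chosen by tags that also enter the fold. On chromosome 2 at 104981738 to 104982062, eWAT held 34 tags against 12 in iWAT and 10 in BAT, yet its fold was 6.57 against 9.97 and 9.74. On chromosome 12 at 30076364 to 30076858 the tags were 31, 9 and 11, and the fold was 18.6 in eWAT and 12.8 in iWAT, with BAT highest at 22.97. The third exception lay on chromosome 18 at 46564508 to 46564739, with 37, 12 and 9 tags and folds of 12.4, 12.6 and 11.3. The most enriched of the 20 lay on chromosome 1 at 167466337 to 167466670, where 40, 12 and 13 tags stood 28.2, 20.3 and 15.0 times above their surroundings.

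The 10 eWAT-stronger regions with the highest eWAT tag counts had more iWAT tags than the 20 regions with the largest lead, and their BAT tags varied widely. Their eWAT counts ran from 50 to 63 tags, with 20 to 30 for iWAT and 10 to 26 for BAT. First among them, the region on chromosome 11 at 7142951 to 7143179 held 63, 30 and 19 tags, and its fold was 24.1 in eWAT and 25.9 in iWAT. The next, on chromosome 8 at 35251788 to 35252045, held 61, 20 and 24 tags. In this group BAT was at times far below iWAT: on chromosome 13 at 119879012 to 119879273 the counts were 50, 24 and 10, so that region ranked at 0.955 in eWAT, 0.642 in iWAT and 0.0657 in BAT. On chromosome 5 at 97340787 to 97341078, with 51, 20 and 14 tags, the lead was 0.447, the widest of the 10.

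At the limit the membership turns on single tags. The 5 regions just inside it had a lead of 0.201 with 25 tags in eWAT, 16 in BAT and 10 to 17 in iWAT. The 5 just outside had leads of 0.1995 to 0.1996, with 40 to 47 tags in eWAT, 26 to 28 in iWAT and 14 to 25 in BAT.

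The shape of the sites moved with the rank. The focus ratio, a number of the authors' peak caller for the share of a site's tags placed properly around its centre, had a median of 0.717 in eWAT at eWAT-stronger regions against 0.684 at the other common regions. In iWAT and BAT it was 0.690 and 0.700 at eWAT-stronger regions, against 0.706 and 0.707 elsewhere. The eWAT value was the highest of the 3 lists in 703 eWAT-stronger regions (39.5%), against 23.8% of the other common regions. At matched eWAT strength, between the eWAT percentiles 0.5 and 0.75, the eWAT medians were 0.719 for 906 eWAT-stronger regions and 0.684 for 5275 others. The mirrored sets were alike. The iWAT median was 0.733 at iWAT-stronger regions and 0.706 at regions with no depot ahead by the limit. The BAT median was 0.733 at BAT-stronger regions and 0.706 at regions with no depot ahead. A higher focus ratio in the leading depot is thus not particular to eWAT. The focus ratio is made from the same tags as the rule and is given as a description.

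The fold over the surroundings is the tags of a site set against its flanks, so it shares its numerator with the rule and is given as a description. Its median at eWAT-stronger regions was 10.6 for eWAT, 9.81 for iWAT and 8.77 for BAT, against 8.44, 11.9 and 10.7 at the other common regions. eWAT had the highest fold in 867 eWAT-stronger regions (48.7%) and in 6.03% of the others. When the fold was turned into percentiles in place of the tag count, eWAT ranked first in 86.7% of the eWAT-stronger regions, against 29.6% of the others, and 743 of the 1780 (41.7%) kept a lead of 0.2. The mirrored sets were alike, with iWAT first by fold in 87.9% of iWAT-stronger regions and BAT first in 84.7% of BAT-stronger regions. Normalized tag counts divided by the fold give the level of the surroundings. At eWAT-stronger regions its medians were 1.41 for eWAT, 1.36 for iWAT and 1.21 for BAT, against 1.47, 1.68 and 1.46 at the other common regions. This level is made from the tag counts that chose the set, and every listed site has a fold of at least 4, so a low count bounds the level from above. At the mirrored sets the level was likewise low in the depots that were not ahead, with 1.27 for eWAT and 1.21 for BAT at iWAT-stronger regions and 1.26 for eWAT and 1.41 for iWAT at BAT-stronger regions.

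The sites of the 3 depots lay slightly less squarely on each other at eWAT-stronger regions. The median distance between the centres of the eWAT and iWAT sites was 47 bp, against 41 bp at the other common regions, and that between the iWAT and BAT sites was 58 bp against 43 bp. Merged regions were accordingly wider, with medians of 306.5 and 294 bp. In the band of eWAT percentiles from 0.75 to 1 the eWAT to iWAT distance was 36 bp against 27 bp. Tags in iWAT and BAT were fewer at eWAT-stronger regions, and the part of low counts in these distances was not tested.

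Position was not used by the rule. eWAT-stronger regions made up 6.02% to 7.95% of the common regions of each autosome, and 36 of the 471 on chromosome X (7.64%, 95% interval 5.41 to 10.4). On chromosome Y 1 of 37 common regions belonged to the set.

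Within 10 kb, the neighbourhood of the eWAT-stronger regions was not richer in sites listed in eWAT alone than that of the other common regions. A region listed only in eWAT lay within 10 kb of 420 of the 1780 (23.6%, 95% interval 21.6 to 25.6), against 23.9% (23.3 to 24.4) of the other common regions. For eWAT-only regions in the top 25% of the eWAT list, the shares were 2.53% and 3.25%. Regions listed only in BAT were rarer, near 14.9% (13.3 to 16.6) of eWAT-stronger regions against 18.2% (17.7 to 18.7) of the others. Regions listed only in iWAT lay near 22.9% (21.0 to 24.9) against 26.6% (26.04 to 27.2). For both, the intervals did not overlap. Within 5 kb they did, with 8.99% (7.70 to 10.4) against 10.1% (9.70 to 10.5) for BAT-only and 12.6% (11.1 to 14.2) against 14.3% (13.8 to 14.7) for iWAT-only regions. BAT-only regions lay within 10 kb of 15.96% (14.2 to 17.8) of iWAT-stronger regions, an interval that overlaps that of the eWAT-stronger regions. Likewise, iWAT-only regions lay within 10 kb of 25.3% (23.5 to 27.2) of BAT-stronger regions, which also overlaps the interval of the eWAT-stronger regions. Within 100 kb an eWAT-only region lay near 88.5% (87.0 to 90.0) of eWAT-stronger regions and 87.4% (87.0 to 87.8) of the other common regions. The mirrored sets had lower shares, with 84.5% (82.7 to 86.2) for iWAT-stronger and 83.7% (82.1 to 85.2) for BAT-stronger regions.

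**Figure D4:**
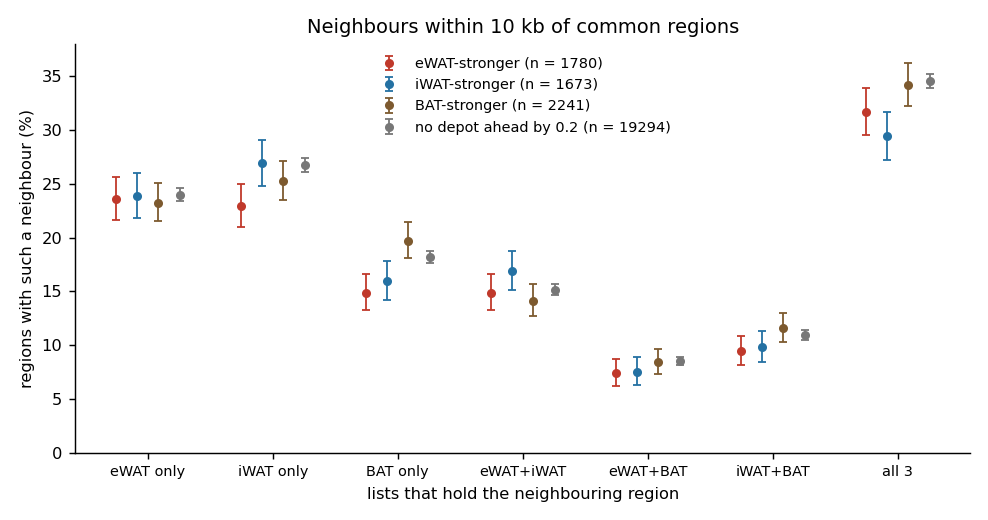
Percent of common regions with a neighbouring region within 10 kb (y axis), by the lists that hold the neighbour (x axis), for regions stronger in eWAT, iWAT or BAT and for those with no depot ahead by 0.2; bars are exact 95% binomial intervals. For eWAT-only neighbours all 4 sets lie between 23.2% and 24.0%, while BAT-only neighbours range from 14.9% for eWAT-stronger to 19.7% for BAT-stronger regions.

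With all classes of neighbour pooled, eWAT-stronger regions more often had none within 10 kb. No other region lay that near to 516 of them (29.0%, 95% interval 26.9 to 31.2), against 24.6% (24.1 to 25.2) of the other common regions. Among iWAT-stronger regions the share was 25.7% (23.6 to 27.9), an interval that overlaps that of the eWAT-stronger regions. Among BAT-stronger regions it was 24.9% (23.1 to 26.7). Taken over the 1218 single-depot regions within 10 kb of the set, 38.8% (36.1 to 41.6) were eWAT-only, 37.7% iWAT-only and 23.5% BAT-only. Near the other common regions the shares were 35.0% (34.3 to 35.8), 39.6% and 25.3%, and over all 51131 single-depot regions they were 38.1%, 39.7% and 22.2%. The eWAT-only share near eWAT-stronger regions was thus above that near the other common regions, with intervals that did not overlap, and its interval held the share over all single-depot regions. The 3 isolated regions with the largest leads were those on chromosomes 11, 3 and 18 already named, and for each the nearest region, 13.2, 47.6 and 25.9 kb away, was listed in eWAT only. Other isolated regions among the 20 with the largest lead had a nearest region listed only in BAT or only in iWAT. The class of the nearest region is not given for all 516, so the 3 are examples.

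The depot that ranked second was set against the surroundings. Where iWAT ranked above BAT by at least 0.1, a region listed in both white depots but not in BAT lay within 50 kb of 59.0% of 463 regions (95% interval 54.3 to 63.5). Where BAT ranked above iWAT by as much, the share was 48.0% of 377 (42.9 to 53.2), and the intervals did not overlap. The share was 54.2% for the other common regions. Within 10 kb the shares were 16.4% (13.2 to 20.1) and 11.9% (8.84 to 15.6), with overlapping intervals. For regions listed in eWAT and BAT but not iWAT the shares were 32.8% (28.6 to 37.3) and 29.7% (25.1 to 34.6) within 50 kb, which also overlap. Several neighbour classes and distances were compared, and this contrast was picked after the values were seen.

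With tag counts ranked, close neighbours of eWAT-stronger regions were eWAT-stronger more often than common regions as a whole, though most were not. Of the common regions within 2 kb of an eWAT-stronger region, 26 of 127 (20.5%) were eWAT-stronger themselves, against 5.26% of those within 2 kb of regions with no depot ahead by 0.2 and 7.12% of all common regions. Only 3 of the 127 were BAT-stronger and 5 iWAT-stronger, and 49.6% ranked first in eWAT, against 32.4% around regions with no depot ahead. From 2 to 5 kb the share was 13.3% (18 of 135), and from 5 to 10 kb it was 7.94%, close to the share in all common regions. Beyond this it stayed between 6.86% and 8.74% up to 1 Mb. Around BAT-stronger regions 23.8% of the partners within 2 kb were BAT-stronger, and around iWAT-stronger regions 10.4% were iWAT-stronger. Pairs within a set are counted from both sides and are not independent, so no interval is given.

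This closeness depended on the ranked quantity. When the fold over the surroundings was ranked in place of the tag count, 5.65% of the partners within 2 kb (10 of 177) were eWAT-stronger, below the 8.21% around regions outside that set. With the limit raised to a lead of 0.3, 4 of 43 partners (9.30%) qualified, against 1.80% around regions outside the set. These alternatives were chosen after the values were seen. The part of the flanks, which close sites have in common, was not tested.

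**Figure D5:**
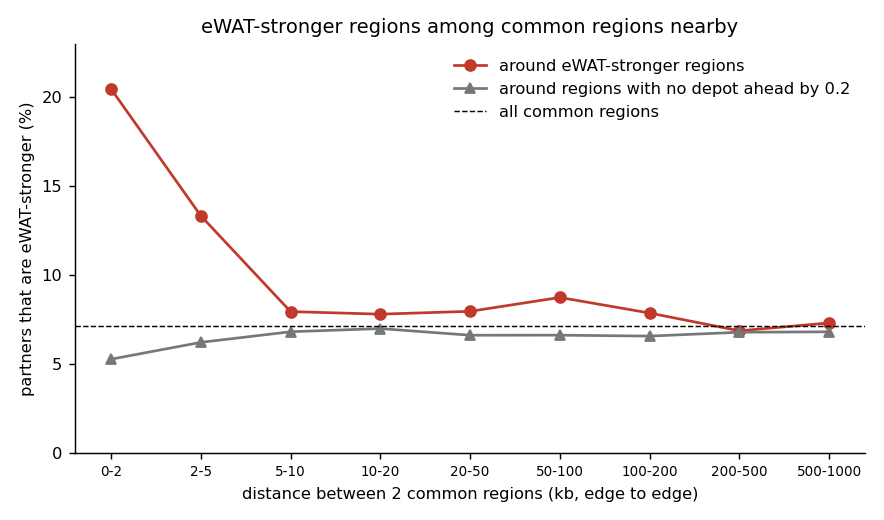
Percent of common regions that are eWAT-stronger (y axis) among the partners at a given distance (x axis, in kb, edge to edge), around eWAT-stronger regions (red) and around regions with no depot ahead by 0.2 (grey); the dashed line is the 7.12% of all common regions. The red line falls from 20.5% within 2 kb to 7.94% between 5 and 10 kb, while the grey line stays between 5.26% and 6.98%.

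There were 13 pairs of eWAT-stronger regions within 2 kb of each other, on 10 chromosomes. The 3 pairs with the largest summed leads are named here, a choice made after their values were seen. On chromosome 17 the regions at 74579060 to 74579377 and 74580129 to 74580712, 752 bp apart, held 30 and 24 eWAT tags, 11 and 11 iWAT tags and 10 and 12 BAT tags. On chromosome 13 those at 110019630 to 110019873 and 110020894 to 110021192 held 33 and 29 eWAT tags, 21 and 13 iWAT tags and 17 and 12 BAT tags. On chromosome 9 those at 60869392 to 60869895 and 60870288 to 60870585 held 26 and 38, 11 and 25, and 10 and 17.

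At the scale of 100 kb, eWAT-stronger regions were mostly alone. They fell into 1647 windows on a grid from the chromosome start, of which 122 held 2 or more, 10 held 3 or more, and none over 4. Within 100 kb of 25.6% of them lay another, against 21.2% of the other common regions and 21.9% of those with no depot ahead by 0.2. Another iWAT-stronger region lay as near to 24.9% of iWAT-stronger regions, against 20.7% of those with no depot ahead. For BAT-stronger regions the shares were 31.9% and 26.8%, so such an excess is not particular to eWAT. Pairs are again counted from both sides, so no interval is given. The window with the most eWAT-stronger regions ran from 12500001 to 12600000 on chromosome 19. It held 7 common regions, of which 4 belonged to the set and none was stronger in iWAT or BAT. There the region at 12519453 to 12519950 held 30, 17 and 17 tags in eWAT, iWAT and BAT, that at 12540577 to 12540831 held 22, 11 and 12, that at 12567631 to 12568085 held 24, 15 and 10, and that at 12576291 to 12576885 held 28, 19 and 10. The other 3 common regions of the window also ranked first in eWAT, by 0.0848, 0.0712 and 0.106. The window was not richer in eWAT sites, with 10 for eWAT and 12 for each other depot, so the eWAT ranks at common sites stood beside a lower number of listed eWAT sites.

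Other windows with 3 eWAT-stronger regions had mixed surroundings. On chromosome 1 from 82700001 to 82800000 all 3 common regions belonged to the set, with 38, 28 and 48 eWAT tags, 22, 11 and 24 iWAT tags and 15, 13 and 22 BAT tags. On chromosome 2 from 90300001 to 90400000, 3 of 4 did, and eWAT listed 8 sites against 4 in iWAT and 5 in BAT. On chromosome 19 from 10000001 to 10100000, 3 of 6 did, the foremost at 10020472 to 10020704 with 34, 14 and 13 tags. On chromosome 10 from 29000001 to 29100000, 3 of 5 did, while the region at 29031491 to 29031740 between them held 57, 56 and 64 tags and ranked at 0.975, 0.971 and 0.988 in eWAT, iWAT and BAT. A lead in eWAT thus stood beside a strong common site without one.

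At the scale of 1 Mb the set was thinly spread. The 3 windows with the most held 6 each, out of 28, 28 and 29 common regions, in the order chromosome 2 (79000001 to 80000000), chromosome 5 (66000001 to 67000000) and chromosome 10 (95000001 to 96000000). Regions stronger in BAT lay in the same windows, with 4, 2 and 2, and regions stronger in iWAT numbered 0, 1 and 1. Windows with 5 or more eWAT-stronger regions numbered 15, against 14 for iWAT-stronger and 30 for BAT-stronger regions. These windows were picked for their number of eWAT-stronger regions.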

How the data were processed

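Per the submitters' processing notes, STAR, HOMER and the build mm9 were used, with no roles or settings given. Each deposited list gives, per site, a normalized tag count (treated as a signal), a focus ratio (a fraction), a peak score, a fold over the surroundings (a ratio) with its p-value, and a clonal fold, per the file headers. Every deposited site has a fold of at least 4 and a p-value of at most 9.98e-05, so weaker sites are not listed.

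Here sites were merged, percentiles computed with mean ranks for ties, and tags recovered as multiples of 1 step per list: 99.98% or more of the values of each list were whole within 0.05 (0.005 below 10). The tools were scipy 1.17.1, pandas 2.3.3 and numpy 2.4.6 under Python 3.11.15. The code was tested on simulated lists. The set, the mirrored sets, lists and tests were chosen with earlier results of these data known. Regions named were the 20 with the largest lead, the 10 with the highest eWAT count, 5 on each side of the limit, 5 windows of 100 kb, 3 of 1 Mb and 3 isolated regions. Gene lists, promoter shares and motifs, planned for a genome of the same build, were not analysed here. With 1 library per depot no test between depots was made. Alternatives covered the limit, the ranked quantity, the merging and the lists.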

Additional observations from a re-analysis of the deposited data

How the results depend on the processing

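Against 1780 regions, a lead of 0.1 gave 3802, 0.3 gave 730 and 0.4 gave 267, and sites that overlap by at least 50% gave 1185. Poisson bounds gave 0 regions at a lead of 0.2 and 37 at a lead above 0. Without such bounds, 1127 remained when the eWAT normalized tag count also had to exceed both others; this and the 37 were chosen after seeing the data. The other alternatives gave 1576 to 2259, but membership moved: 743 of the 1780 were shared when fold was ranked and 1306 with percentiles over whole lists. An eWAT-only region lay within 5 kb of 11.3% and within 50 kb of 71.2%, and a strong one within 10 kb of 2.53%; other common regions had 12.02%, 69.8% and 3.25%. Another eWAT-stronger region lay within 2 kb of 1.46%, within 10 kb of 4.27%, within 50 kb of 14.8%, and within 100 kb of 13.97% at a lead of 0.3, against 0.435%, 2.499%, 12.06% and 9.26% of regions outside the set. Within 2 kb the share of eWAT-stronger partners was 9.30% at a lead of 0.3 (1.80% around regions outside the set), 5.65% by fold (8.21%), and 22.1% at a lead of 0.1 (12.5%), against 20.5% (4.84%) by the rule. It was 20.8% to 27.3% (4.65% to 5.98%) in the other added alternatives. The median eWAT fold was 11.265 at a lead of 0.3, and in the top 25% by eWAT the folds were 12.95, 11.375 and 10.21. No paired analysis was possible because each depot has 1 library. Promoter, motif and gene-list alternatives were not run, since no mm9 annotation was used. Low tag counts limit every single region.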
